A study of Mus musculus with 28 samples.

Results

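The oxidative phosphorylation subunits are the proteins that make up the 5 complexes of the mitochondrial inner membrane which turn the oxidation of NADH and succinate into ATP. Their genes were taken from the array by name: every gene whose symbol follows the Ndufa, Ndufb, Ndufc, Ndufs, Ndufv, Sdh, Uqcr, Cox4 to Cox8 or Atp5 series, with Cyc1 and Cycs, and which has a probe set that carries no other symbol. A gene with more than 1 probe set is represented by its brightest, judged by the mean over all arrays. The rule found 83 genes among 19938 genes with a single-symbol probe set, of which 80 had signals above the array's floor and were tested beside 13432 other genes. They comprise 33 subunits of complex I, 4 of complex II, 9 of complex III, 19 of complex IV (16 tested), 17 of complex V and the electron carrier cytochrome c. The rule uses symbols and mean signals and no difference between groups. It was set with earlier results of these data known, so the choice is not independent of them.

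The samples were resident macrophages washed from the mouse peritoneum without thioglycollate, kept overnight in a serum-free macrophage medium and rinsed to remove cells that did not adhere. Their RNA was read on Affymetrix arrays, with 7 groups of 4 arrays from 4 biologically independent experiments each. Both uninjected groups had a C57BL/6 background: wild-type mice (called WT) and ATF7 KO mice, which lack the transcription factor ATF7. The other 5 groups were wild-type C57BL/6 mice injected intravenously at 7 to 8 weeks of age and sampled 3 to 4 weeks later, at 10 to 12 weeks (the label says 3 weeks). They received PBS, LPS from E. coli O111:B4, PGN (peptidoglycan), IMQ (imiquimod) or BG (β-glucan), ligands of the innate receptors TLR4, TLR2, TLR7 and dectin-1 in the usual account. How the ATF7 allele was made, and whether its loss was limited to some cells, is not given in the sources used here. The study's title names LPS-induced epigenetic change through ATF7 as its subject, so each ligand was set against PBS and the knockout against WT.

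In the respiratory chain, complex I takes electrons from NADH and complex II takes them from succinate, and both pass them to ubiquinone. Complex III hands them to cytochrome c, complex IV gives them to oxygen, and complexes I, III and IV pump protons that drive complex V, the ATP synthase. Macrophages are known to shift between respiration and glycolysis on activation, and resident peritoneal macrophages are known to rely strongly on respiration. Nearly all subunits are encoded in the nucleus, and their promoters are known for sites of the factors NRF1, GABP, YY1 and ERRα. ATF7 belongs to the ATF/CREB family, whose members bind the palindrome TGACGTCA, the cyclic AMP response element or CRE.

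The promoters of 4 members with a full CRE show how these letters sit before the start site. RefSeq's promoter table for GRCm38.p6 matched 67 of the 83 members by Entrez gene identifier, with 72 windows that reach from 250 bases before to 50 bases after a start site. The 250 bases before the start are printed 5′ to 3′ on the gene's strand, with the CRE in capitals, and for Ndufa11 also the palindromic NRF1 site, which is GCGCA followed by its reverse complement.

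Cycs, cytochrome c, chr6:50566570-50566819, minus strand: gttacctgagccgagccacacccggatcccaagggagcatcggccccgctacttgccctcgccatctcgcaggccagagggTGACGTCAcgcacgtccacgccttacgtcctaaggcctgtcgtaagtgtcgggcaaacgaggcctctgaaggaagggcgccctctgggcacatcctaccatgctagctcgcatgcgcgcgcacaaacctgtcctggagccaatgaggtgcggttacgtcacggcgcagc

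Ndufa11, complex I membrane arm, chr17:56717512-56717761, plus strand: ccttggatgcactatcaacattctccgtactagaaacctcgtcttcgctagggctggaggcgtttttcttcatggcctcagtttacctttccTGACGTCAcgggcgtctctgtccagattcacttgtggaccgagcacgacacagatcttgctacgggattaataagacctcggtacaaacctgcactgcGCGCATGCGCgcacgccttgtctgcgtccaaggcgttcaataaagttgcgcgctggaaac

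Ndufb2, complex I membrane arm, chr6:39592315-39592564, plus strand: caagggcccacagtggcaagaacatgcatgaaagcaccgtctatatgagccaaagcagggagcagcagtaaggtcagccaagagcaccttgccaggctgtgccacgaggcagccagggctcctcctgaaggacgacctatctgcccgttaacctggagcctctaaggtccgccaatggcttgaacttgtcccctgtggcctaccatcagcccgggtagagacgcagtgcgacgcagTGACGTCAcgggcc

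Uqcrfs1, the Rieske iron-sulfur protein of complex III, chr13:30545317-30545566, minus strand: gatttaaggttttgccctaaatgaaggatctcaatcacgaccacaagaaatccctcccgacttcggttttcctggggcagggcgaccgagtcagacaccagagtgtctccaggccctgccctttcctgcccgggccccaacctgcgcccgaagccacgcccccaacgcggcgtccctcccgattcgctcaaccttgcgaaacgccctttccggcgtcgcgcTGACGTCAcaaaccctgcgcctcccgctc

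The first base of the CRE lay at -169 from the start of Cycs, -158 of Ndufa11, -14 of Ndufb2 and -29 of Uqcrfs1, and Ndufa10 held one at -67. Searched on both strands, TGACGTCA was in the windows of 5 of 67 members (7.46%) and of 2.03% of all 27025 genes with such a window. The shorter CRE letters TGACG were in 26 members (38.8%) against 23% of all genes, counting those within a full CRE. The 7-letter GABP site CCGGAAG was in 17 members (25.4%) against 9.93% of all genes. The YY1 letters AAGATGGCG were in 7 members (10.4%) against 1.64%, and the NRF1 palindrome in 5 (7.46%) against 1.07%. The ERR letters TCAAGGTCA were in 2 members (2.99%) against 0.466%. These are matches of letters in a window, not shown sites of binding, and the matches of different motifs were counted separately, overlapping or not. The calls in the knockout were then set beside the letters, as counts with no test, for the 28 members with a window that were higher and the 32 that were not called. The CRE was in 3 of the 28 and 2 of the 32, its shorter letters in 12 and 11, the NRF1 palindrome in 2 and 2, the ERR letters in 1 and 1. YY1 letters were in 6 and 1, and the GABP site in 6 of 28 (21.4%) against 10 of 32 (31.2%). After BG the CRE was in 3 of 37 higher members and 2 of 21 that were not called, the YY1 letters in 5 and 1, and the GABP site in 10 and 5. Among the promoters printed, Cycs and Ndufa11 belonged to genes higher in the knockout (log2 changes of 0.33 and 0.17), and Ndufb2 and Uqcrfs1 to genes that were not called there (0.0091 and -0.025). The call of Ndufa11 was lost without WT replicate 2 or without WT replicate 3.

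Array medians ran from 107 to 115 signal units, and any 2 arrays of the same group correlated with r of 0.985 or more. Of the 2 Atf7 probe sets, one was 7.40-fold lower in the knockout (7.08 ± 0.10 against 9.97 ± 0.11, log2, SD, n = 4) and the other 1.36-fold lower, in step with the labels. The 8 macrophage markers (among them Adgre1, Csf1r and Cd68) were above the floor in every group. Their mean log2 signal in single arrays was 11.35 to 11.50 in WT and 11.52 to 11.61 in the knockout, which do not overlap, while their summed signal did overlap (33071 to 34787 against 33126 to 33871 units). In the knockout 3 of the 8 were called higher, with Fcgr1 at a log2 change of 1.16, and 3 lower. The median log2 change of the list was -0.0093 there, so its mean rose while its median did not. Array means of the same list were 11.45 to 11.56 after PBS, 11.42 to 11.55 after LPS, 11.57 to 11.64 after PGN, 11.58 to 11.65 after IMQ and 11.37 to 11.44 after BG. The list's mean was thus above that of the controls in the knockout, PGN and IMQ arrays and below it after BG, and its part in the subunits' changes was not tested. Markers of B cells were present too: over 16 genes, their mean in single arrays was 8.02 to 8.64 in WT, 7.47 to 7.96 in the knockout, 8.21 to 8.50 after PBS and 7.95 to 8.07 after BG. The summed signal of the B cell list was 8570 to 11970 units in WT, 6579 to 7863 in the knockout, 9964 to 11478 after PBS and 7856 to 8451 after BG, with Cr2 and Fcer2a at the floor in every array. B cell markers were thus lower in the knockout (12 of 14 tested lower, none higher) and after BG (6 lower, 1 higher), and their part in the results below was not tested beyond the fit with a covariate given there. Markers of large peritoneal macrophages (7 genes with Gata6) had array means of 10.91 to 11.09 in WT and 10.59 to 10.78 in the knockout. Array means of this list were 10.57 to 11.08 after PBS and 10.43 to 10.72 after BG, which overlap. In the knockout 2 of the 7 were called lower and 0 higher, with a median log2 change of -0.060. After BG 3 were lower and 1 higher. Gata6 itself had log2 changes of -1.51 in the knockout and -0.93 after BG. The part of these markers in the subunits' changes was not tested. Markers of T cells were near the floor, with group means of 6.18 to 6.30 and Cd3d and Cd3g at the floor in every array. In such bulk samples, fewer cells of a type and less RNA per cell cannot be told apart.

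**Figure D1:**
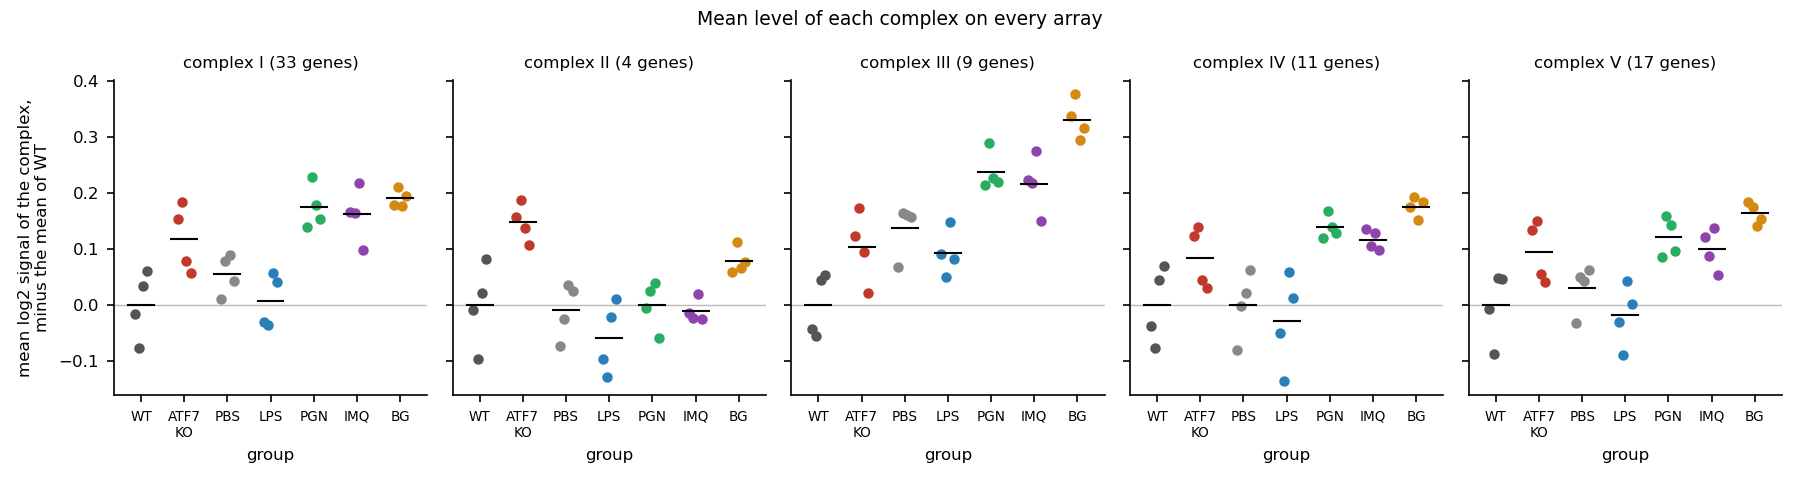
Mean log2 signal of the tested subunits of each complex (33 genes of complex I, 4 of II, 9 of III, 11 of IV without the tissue-restricted isoforms, 17 of V), as the difference from the WT mean. Points are arrays and bars are means of 4 arrays. The BG arrays lie above the PBS arrays in each panel, and the LPS arrays overlap with the PBS arrays.

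Averaged over the 75 subunits that are not tissue-restricted isoforms, the log2 signal of single arrays ran from 9.57 to 9.71 in WT and from 9.70 to 9.82 in the knockout, so both ranges overlapped. It ran from 9.64 to 9.73 after PBS, 9.59 to 9.71 after LPS, 9.78 to 9.86 after PGN, 9.74 to 9.84 after IMQ and 9.83 to 9.87 after BG. Arrays of the BG and PGN groups thus lay above all PBS arrays, as did those of IMQ, while the LPS arrays overlapped with PBS. These averages are the data behind the plot of complexes by array and carry no test.

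Differences among the 7 groups were common for the subunits and for the array as a whole. limma's F test over the 7 groups called 73 of the 80 members at an adjusted p under 0.05, beside 74.3% of all 13512 genes tested. The exceptions were Cox6a1, Cox6b2, Cox7a1, Cox7a2, Cox8c, Ndufb3 and Ndufb5. In the 6 single comparisons, called again at an adjusted p under 0.05 over all genes, the members called higher and lower numbered 36 and 5 in the knockout, 45 and 8 after BG, 15 and 0 after PGN, 14 and 0 after IMQ, 1 and 3 after LPS, and 23 and 11 after PBS injection against WT.

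**Figure D2:**
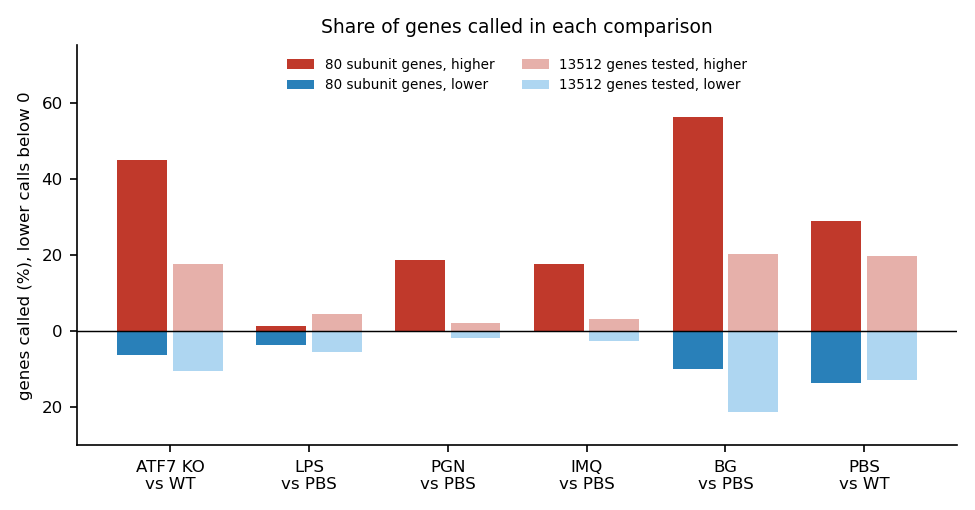
Share of genes called at an adjusted p under 0.05 in each comparison, in percent, for the 80 subunits and for all 13512 genes tested. Higher calls are drawn above 0 and lower calls below. The subunits' share of higher calls is 45% in the knockout and 56.3% after BG, against 17.7% and 20.2% of all genes.

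Loss of ATF7 went with higher signals of subunits in every complex. In ATF7 KO against WT, 36 of 80 members (45%) were higher and 5 (6.25%) lower, beside 17.7% of all genes higher and 10.7% lower. The estimate was above 0 for 65 members, and their median log2 change was 0.13 against 0.0053 for all genes. Complex I had 17 of 33 subunits higher and 2 lower, complex II 3 of 4 higher, complex III 3 of 9 higher and 1 lower, complex IV 5 of 16 higher and 1 lower, and complex V 7 of 17 higher and 1 lower. All called changes were small, with the largest at 1.26-fold (Cycs).

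In complex I of the knockout, the NADH-oxidising module had 6 of 10 subunits higher and 1 lower, the ubiquinone-reducing module 4 of 5 higher, and the membrane arm 7 of 18 higher and 1 lower. Of all genes, 17.7% were higher and 10.7% lower, and nothing particular to a module is read from such small counts. Ndufv1, which binds NADH and the flavin FMN, read 9.32, 9.16, 9.32 and 9.39 in the WT arrays and 9.52, 9.59, 9.60 and 9.43 in the knockout arrays. Every knockout array was above every WT array (log2 change of 0.24 ± 0.057 SE, 1.18-fold higher, adjusted p = 0.00208). Ndufa9, an accessory subunit beside the ubiquinone-reducing module, read 9.04, 8.98, 9.23 and 9.21 in WT and 9.48, 9.56, 9.42 and 9.28 in the knockout. These groups did not overlap either (log2 change of 0.32 ± 0.058 SE, 1.25-fold higher, adjusted p = 0.000135). Ndufb9 of the membrane arm read 9.79, 9.69, 9.96 and 10.00 in WT and 10.07, 10.19, 10.06 and 10.05 in the knockout, a small step with no overlap (log2 change of 0.23 ± 0.056 SE, 1.17-fold higher, adjusted p = 0.00238). Ndufb6, another accessory subunit of that arm, read 10.45, 10.22, 10.58 and 10.46 in WT and 10.84, 10.97, 10.53 and 10.58 in the knockout. Knockout replicates 1 and 2 were high, whereas replicates 3 and 4 lay at the level of WT replicate 3 (log2 change of 0.31 ± 0.082 SE, 1.24-fold higher, adjusted p = 0.00564).

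Both complex I subunits that were lower in the knockout are accessory proteins. Ndufa6, a small protein of the LYR-motif family, read 9.36, 9.21, 9.45 and 9.31 in WT and 9.14, 9.18, 9.10 and 8.95 in the knockout. Its knockout arrays lay below all WT arrays (log2 change of -0.24 ± 0.061 SE, 1.18-fold lower, adjusted p = 0.00333). Ndufb11 of the membrane arm had a log2 change of -0.13 ± 0.042 SE, 1.10-fold lower, adjusted p = 0.0163, a call that was lost without WT replicate 1, WT replicate 3 or knockout replicate 3. In complex II, the membrane anchor Sdhc read 9.87, 9.85, 10.00 and 10.05 in WT and 10.26, 10.21, 10.20 and 10.10 in the knockout. All 4 knockout values were above the WT values (log2 change of 0.25 ± 0.048 SE, 1.19-fold higher, adjusted p = 0.000283). Calls for Sdha and Sdhb, the catalytic head of complex II, were near the threshold (limma's adjusted p of 0.0362 and 0.0408). Both were lost without WT replicate 1, WT replicate 2 or knockout replicate 2, that of Sdha also without knockout replicate 4, and that of Sdhb also without knockout replicates 1 or 3.

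Complex III and cytochrome c followed the same direction in the knockout, with 1 exception. Uqcrc1, a core protein of complex III, read 9.84, 9.69, 9.86 and 9.89 in WT and 10.12, 10.07, 10.13 and 10.03 in the knockout. No values overlapped (log2 change of 0.26 ± 0.048 SE, 1.20-fold higher, adjusted p = 0.000135). Cyc1, cytochrome c1, which passes the electron to cytochrome c, read 9.16, 9.11, 9.31 and 9.46 in WT and 9.51, 9.68, 9.48 and 9.46 in the knockout. Here WT replicate 4 reached the lowest knockout array (log2 change of 0.27 ± 0.064 SE, 1.21-fold higher, adjusted p = 0.002). Uqcrh, the hinge protein that helps cytochrome c1 meet cytochrome c, went the other way. It read 10.48, 10.43, 10.48 and 10.45 in WT and 10.33, 10.15, 10.35 and 10.12 in the knockout, with every knockout array lower (log2 change of -0.22 ± 0.058 SE, 1.16-fold lower, adjusted p = 0.00475). Cycs itself, the mobile carrier between complexes III and IV, read 10.90, 11.00, 11.23 and 11.20 in WT and 11.36, 11.66, 11.26 and 11.38 in the knockout. The WT arrays were spread, with replicates 1 and 2 low, yet all lay below the knockout arrays (log2 change of 0.33 ± 0.076 SE, 1.26-fold higher, adjusted p = 0.00144), and its second probe set gave a log2 change of 0.43 (adjusted p = 0.000543).

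In complex IV, 4 of 10 general subunits were higher in the knockout, beside 17.7% of all genes. Cox5a, a nuclear-encoded subunit, read 9.51, 9.53, 9.40 and 9.63 in WT and 9.84, 9.92, 9.79 and 9.74 in the knockout, with no overlap (log2 change of 0.31 ± 0.057 SE, 1.24-fold higher, adjusted p = 0.000166). Ndufa4, named for complex I but now assigned to complex IV, read 8.73, 8.51, 8.76 and 8.73 in WT and 9.04, 9.06, 8.81 and 8.90 in the knockout. Again the groups were apart (log2 change of 0.27 ± 0.074 SE, 1.20-fold higher, adjusted p = 0.00688). Cox4i1, which is needed to begin assembly of the complex, was not called (log2 change of -0.067 ± 0.061 SE, 1.05-fold lower, adjusted p = 0.46). Cox7a2l is described as a factor of supercomplexes of complexes III and IV, which were not measured here. It read 8.62, 8.61, 8.56 and 8.58 in WT and 8.27, 8.18, 8.37 and 8.30 in the knockout. This was the steepest fall among the members in the knockout, with all knockout arrays below WT (log2 change of -0.31 ± 0.060 SE, 1.24-fold lower, adjusted p = 0.000256), and its second probe set gave -0.33 (adjusted p = 0.0012).

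In complex V of the knockout, the catalytic β subunit Atp5b read 11.98, 11.90, 12.04 and 12.05 in WT and 12.14, 12.25, 12.10 and 12.23 in the knockout. The knockout arrays were higher without overlap (log2 change of 0.19 ± 0.040 SE, 1.14-fold higher, adjusted p = 0.000785). The α subunit Atp5a1 moved alike (log2 change of 0.14 ± 0.037 SE, 1.11-fold higher, adjusted p = 0.00426), whereas the γ subunit Atp5c1 and the δ subunit Atp5d were not called (log2 changes of -0.043 and -0.00080). Atp5g1, Atp5g2 and Atp5g3 encode the same mature c-ring protein, and they did not move together. Atp5g1 read 10.48, 10.43, 10.61 and 10.74 in WT and 10.83, 10.89, 10.74 and 10.72 in the knockout, higher on average though WT replicate 4 overlapped (log2 change of 0.23 ± 0.057 SE, 1.17-fold higher, adjusted p = 0.00286). Atp5g2 read 11.77, 11.81, 11.82 and 11.82 in WT and 11.70, 11.53, 11.75 and 11.57 in the knockout, lower in every array (log2 change of -0.16 ± 0.039 SE, 1.12-fold lower, adjusted p = 0.0021). The call of Atp5g3 (log2 change of 0.15 ± 0.047 SE, 1.11-fold higher, adjusted p = 0.0138) was lost without WT replicate 2, knockout replicate 1 or knockout replicate 2.

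**Figure D3:**
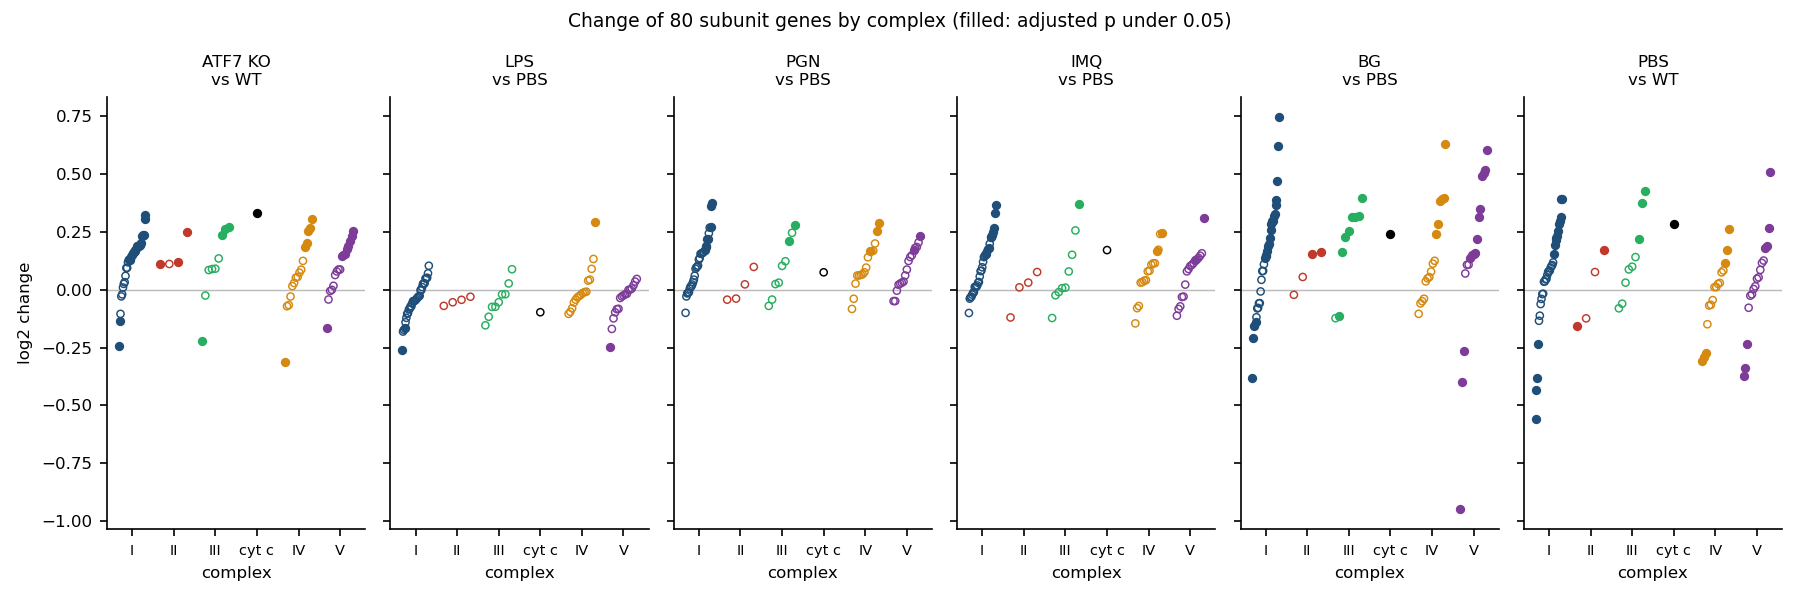
Log2 change of each tested subunit in the 6 comparisons, arranged by complex. Filled points have an adjusted p under 0.05 and open points do not. Changes after BG span -0.95 to 0.75, wider than in the knockout (-0.31 to 0.33), and the LPS points lie around 0.

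The knockout counts changed with the samples in the fit and with a B cell covariate. With only the 8 arrays of both groups, 17 members were higher and 3 lower (Cox7a2l, Ndufa6 and Uqcrh), and Ndufb6, Atp5g2 and Atp5g3 were no longer called. Without WT replicate 2, 22 were higher, and without knockout replicate 2, 21. Calls over all genes moved too: 2388 were higher and 1442 lower in the full fit, and 1465 and 944 with only these 8 arrays. Without WT replicate 2, 1781 of all genes were higher, and without knockout replicate 2, 1790. With the arrays' mean B cell marker signal as a covariate, 3 members were higher (Atp5b, Ndufa9 and Ndufs5, the last named after its value was seen) and 2 lower (Atp5g2 and Uqcrh), while calls over all genes went from 2388 higher to 776 and the members' median stayed at 0.13. That covariate was 7.79 to 8.31 in the knockout arrays and 8.40 to 9.07 in the WT arrays, without overlap. It thus went with the genotype, and this fit cannot tell them apart.

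β-glucan went with the most called subunits among the 6 comparisons. In BG against PBS, 45 of 80 members (56.3%) were higher and 8 (10%) lower, beside 20.2% of all genes higher and 21.4% lower. The members' median log2 change was 0.15 against 0.019 over all genes, and the largest called change was 1.93-fold. Complex I had 18 of 33 subunits higher and 4 lower, complex II 2 of 4 higher, complex III 7 of 9 higher and 1 lower, complex IV 6 of 16 higher, complex V 11 of 17 higher and 3 lower, and Cycs was higher. Leaving out any 1 array gave 39 to 44 higher and 8 lower, beside 2282 to 2519 higher and 2510 to 2841 lower over all genes.

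Within complex I after BG, 11 of 18 membrane arm subunits were higher and 1 lower, 4 of 10 in the NADH-oxidising module higher and 1 lower, and 3 of 5 in the ubiquinone-reducing module higher and 2 lower. All genes had 20.2% higher and 21.4% lower, and again no module is set apart by such small counts. Ndufa1, a small membrane arm subunit encoded on the X chromosome and essential for assembly, read 7.42, 7.59, 7.52 and 7.51 after PBS and 8.20, 8.22, 8.28 and 8.33 after BG. It had the largest rise of all members, with BG arrays well above PBS (log2 change of 0.75 ± 0.078 SE, 1.68-fold higher, adjusted p = 3.91e-08). Ndufs6, a zinc-binding subunit added late to the NADH-oxidising module, read 8.48, 8.47, 8.61 and 8.37 after PBS and 9.09, 9.12, 9.13 and 9.09 after BG. The BG arrays were tightly grouped above all PBS arrays (log2 change of 0.62 ± 0.059 SE, 1.54-fold higher, adjusted p = 8.51e-09). Ndufa6, which was lower in the knockout, read 8.89, 8.90, 8.91 and 8.90 after PBS and 9.39, 9.21, 9.37 and 9.49 after BG, higher in every array (log2 change of 0.47 ± 0.061 SE, 1.38-fold higher, adjusted p = 1.04e-06). Ndufb11 read 10.57, 10.56, 10.54 and 10.44 after PBS and 10.17, 10.10, 10.18 and 10.14 after BG. Its BG arrays lay below all PBS arrays (log2 change of -0.38 ± 0.042 SE, 1.30-fold lower, adjusted p = 9.36e-08). Ndufv2, the iron-sulfur protein that takes electrons next to the flavin, read 10.69, 10.90, 10.80 and 10.73 after PBS, 10.50, 10.59, 10.60 and 10.59 after BG and 11.08, 11.07, 11.08 and 10.95 after IMQ. BG arrays lay below PBS (log2 change of -0.21 ± 0.054 SE, 1.15-fold lower, adjusted p = 0.00339), whereas IMQ arrays lay above it (log2 change of 0.27 ± 0.054 SE, 1.20-fold higher, adjusted p = 0.00374). The iron-sulfur subunits that carry electrons to ubiquinone were lower after BG too. Ndufs7 fell with no overlap (log2 change of -0.14 ± 0.035 SE, 1.10-fold lower, adjusted p = 0.00231). Ndufs8 fell likewise (log2 change of -0.16 ± 0.044 SE, 1.12-fold lower, adjusted p = 0.00521).

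In complex II, the iron-sulfur subunit Sdhb read 9.87, 9.91, 9.96 and 10.02 after PBS and 10.11, 10.14, 10.08 and 10.11 after BG (log2 change of 0.16 ± 0.040 SE, 1.12-fold higher, adjusted p = 0.00193). The groups did not overlap. Called members of complexes III and IV were higher after BG with 1 exception. Uqcrq, a small subunit of complex III, read 8.66, 8.81, 8.76 and 8.82 after PBS and 9.12, 9.12, 9.18 and 9.21 after BG. The groups were well apart (log2 change of 0.40 ± 0.064 SE, 1.32-fold higher, adjusted p = 2.07e-05). Cyc1 read 9.64, 9.74, 9.69 and 9.67 after PBS and 10.00, 10.03, 10.03 and 9.95 after BG, again with no overlap (log2 change of 0.32 ± 0.064 SE, 1.25-fold higher, adjusted p = 0.000279). The core protein Uqcrc2, named here after its value was seen, was the complex III subunit called lower (log2 change of -0.11 ± 0.035 SE, 1.08-fold lower, adjusted p = 0.0107). In complex IV, Ndufa4 read 8.36, 8.38, 8.40 and 8.49 after PBS and 8.88, 9.09, 9.07 and 9.10 after BG. All BG arrays were higher (log2 change of 0.63 ± 0.074 SE, 1.55-fold higher, adjusted p = 2.24e-07). Cox4i1 read 9.07, 9.21, 9.28 and 9.30 after PBS and 9.53, 9.63, 9.62 and 9.65 after BG, also without overlap (log2 change of 0.39 ± 0.061 SE, 1.31-fold higher, adjusted p = 1.16e-05). Cox5a rose as well (log2 change of 0.39 ± 0.057 SE, 1.31-fold higher, adjusted p = 4.25e-06). So did Cox6c, with less change (log2 change of 0.28 ± 0.040 SE, 1.22-fold higher, adjusted p = 3.83e-06). Cycs was higher after BG (log2 change of 0.24 ± 0.076 SE, 1.18-fold higher, adjusted p = 0.0134), a call that was lost without PBS replicate 1 (log2 change of 0.20, adjusted p = 0.0567) and with the mean of its probe sets. That mean takes in a probe set with a mean signal of 5.86, which exceeded the floor of 6.32 in 1 array. Tested singly, the probe sets of Cycs above the floor were called higher after BG.

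Complex V held both the steepest falls and several of the largest rises after BG. Atp5md, a small membrane subunit also called DAPIT, read 11.46, 11.62, 11.54 and 11.42 after PBS and 10.62, 10.56, 10.50 and 10.56 after BG. The BG arrays were below every array of the other 6 groups (log2 change of -0.95 ± 0.074 SE, 1.93-fold lower, adjusted p = 3.17e-10), and its other probe sets gave -0.91 and -0.94. Atp5d, the δ subunit of the central stalk, read 12.39, 12.40, 12.41 and 12.42 after PBS and 11.98, 12.03, 12.00 and 12.01 after BG. Its BG values were lower with little spread (log2 change of -0.40 ± 0.031 SE, 1.32-fold lower, adjusted p = 2.59e-10). Atp5o, the oligomycin sensitivity conferring protein of the peripheral stalk, read 9.08, 9.25, 9.32 and 9.29 after PBS and 9.80, 9.85, 9.89 and 9.83 after BG. All BG arrays were higher (log2 change of 0.61 ± 0.066 SE, 1.52-fold higher, adjusted p = 7.81e-08). Of the small membrane subunits, Atp5l rose without overlap (log2 change of 0.50 ± 0.056 SE, 1.42-fold higher, adjusted p = 9.07e-08). Atp5mpl did so too (log2 change of 0.52 ± 0.066 SE, 1.43-fold higher, adjusted p = 7.16e-07).

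The genes of the c-ring protein again parted after BG. Atp5g3 read 10.22, 10.28, 10.29 and 10.33 after PBS and 10.81, 10.76, 10.75 and 10.78 after BG, higher with no overlap (log2 change of 0.49 ± 0.047 SE, 1.41-fold higher, adjusted p = 7.91e-09). Atp5g1 was higher (log2 change of 0.31 ± 0.057 SE, 1.24-fold higher, adjusted p = 8.25e-05). Atp5g2 read 11.72, 11.69, 11.75 and 11.75 after PBS and 11.48, 11.45, 11.43 and 11.49 after BG, lower in every array (log2 change of -0.26 ± 0.039 SE, 1.20-fold lower, adjusted p = 5.9e-06). With the B cell marker mean as a covariate, 40 members were higher after BG and 7 lower. Over all genes, 1987 were then higher and 2357 lower, against 2729 and 2895 without it. That mean did not overlap between BG and PBS arrays (8.31 to 8.45 and 8.60 to 8.94).

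**Figure D4:**
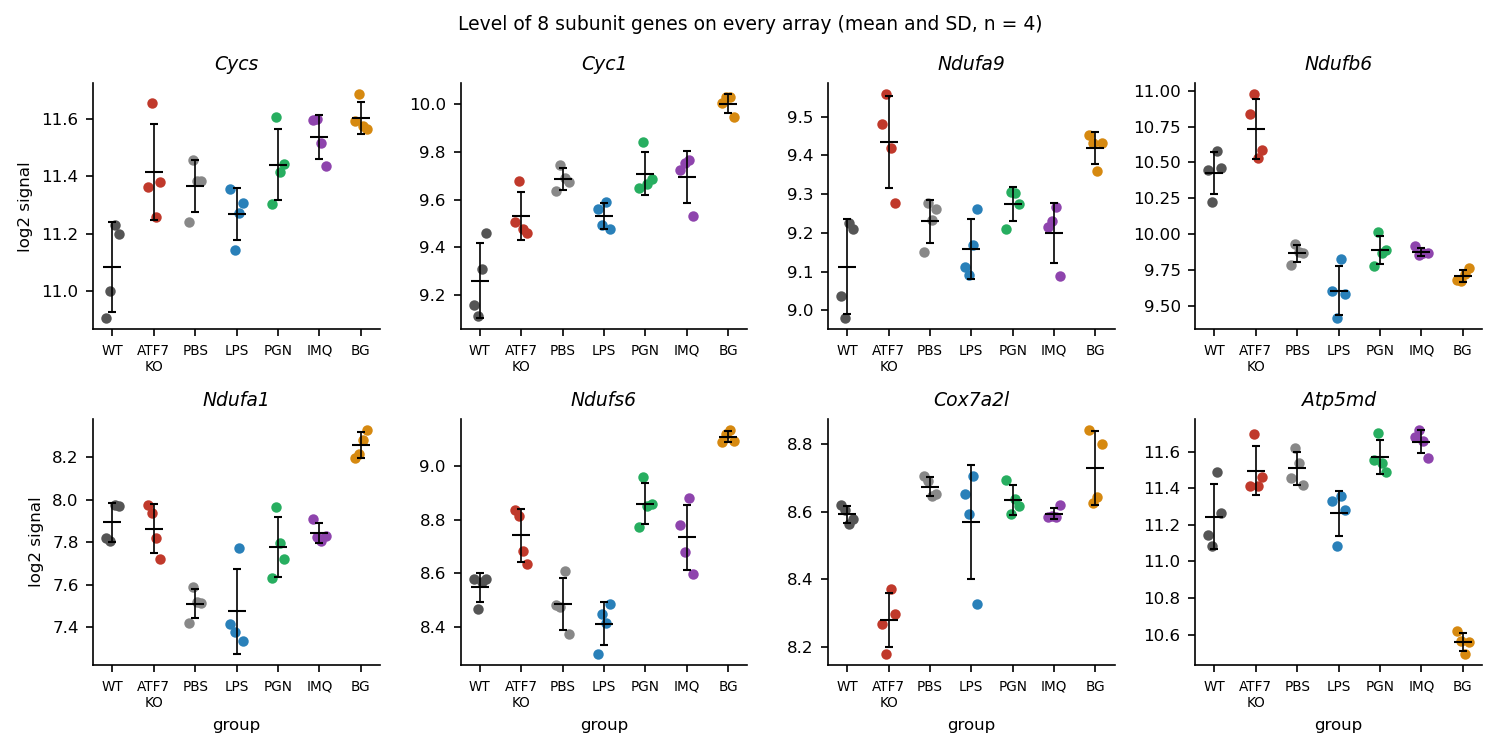
Log2 signal of 8 members (Cycs, Cyc1, Ndufa9, Ndufb6, Ndufa1, Ndufs6, Cox7a2l and Atp5md) in every array of the 7 groups, with mean and SD (n = 4). Cox7a2l is low in the knockout, and Atp5md is low and Ndufa1 and Ndufs6 are high after BG.

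The knockout and BG comparisons share no array, so their members can be set against each other. Higher in both were 23 members, which is 63.9% of those higher in the knockout and 51.1% of those higher after BG, where 749 genes were higher in both over the whole array, or 31.4% and 27.4% of all genes higher in the one and the other. As a share of the genes tested, the overlap was 28.8% of the 80 members, beside 5.54% of all genes. The shares higher in each comparison alone multiply to 25.3% for the members and 3.57% for all genes, and nothing particular to the subunits is read from the overlap. Among the 23 were Cycs, Cyc1, Uqcrc1, Uqcrq, Cox5a, Cox5b, Ndufa4, Ndufa9, Atp5a1, Atp5b and Atp5g1. Atp5g2 and Ndufb11 were lower in both. Atp5md, Ndufs7 and Ndufs8 were higher in the knockout and lower after BG, and Ndufa6 and Uqcrh were lower in the knockout and higher after BG. The knockout call of Atp5md was lost without WT replicate 2 or knockout replicate 2, and that of Ndufs8 without WT replicates 1, 2 or 3 or knockout replicates 2 or 3. Across the 80 members the sizes of both changes were barely related (Pearson r of 0.0734, Spearman rho of 0.163), as a description over genes that share arrays. Over all 13512 genes the same measures were 0.334 and 0.194.

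**Figure D5:**
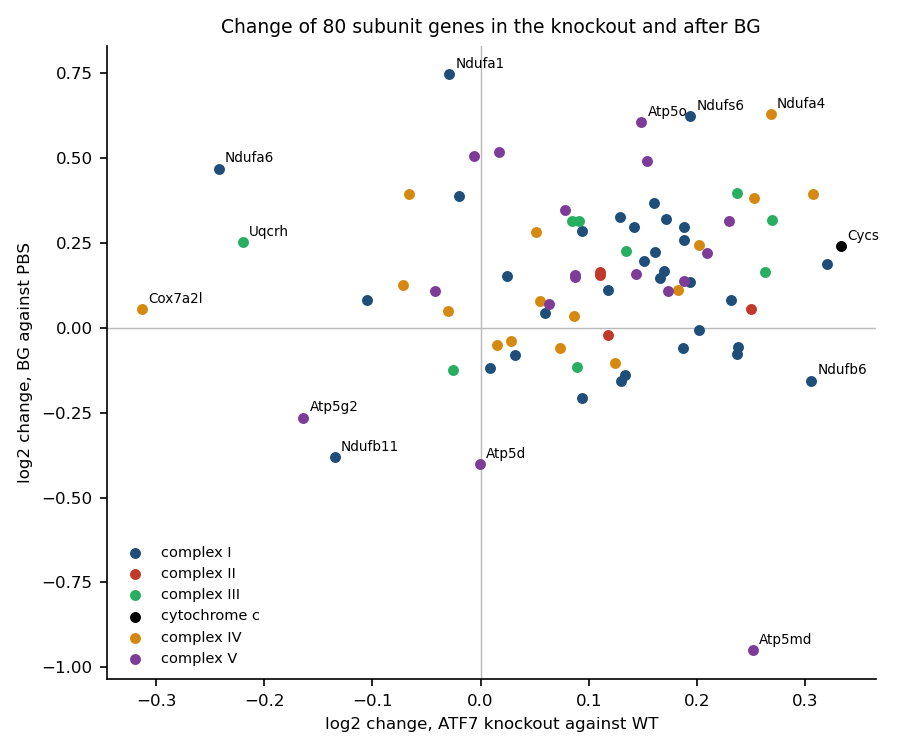
Log2 change of the 80 members in ATF7 KO against WT (horizontal) and in BG against PBS (vertical), coloured by complex. Most points lie above 0 on both axes, Atp5md stands apart at -0.95 after BG, and there is no clear line through the points.

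The difference of both effects was tested gene by gene (knockout change minus BG change). It was above 0 for 12 of 80 members and below 0 for 16 at an adjusted p under 0.05, beside 18% and 11.2% of all genes. The members' share above 0 was thus below that of all genes, and nothing particular to the subunits is read from it. The largest difference was that of Atp5md (1.20 ± 0.10 SE on the log2 scale, adjusted p = 7.55e-09). Below 0, Ndufa1 (-0.77 ± 0.11 SE on the log2 scale, adjusted p = 9.82e-06) and Ndufa6 (-0.71 ± 0.086 SE on the log2 scale, adjusted p = 1.24e-06) followed. Atp5d differed (0.40 ± 0.044 SE on the log2 scale, adjusted p = 2.9e-07), and so did Uqcrh (-0.47 ± 0.081 SE on the log2 scale, adjusted p = 0.000105). The c-ring gene Atp5g3, which was called higher in both comparisons, differed too (-0.34 ± 0.066 SE on the log2 scale, adjusted p = 0.000399), while for Cycs and Cyc1 the differences were 0.094 and -0.047 with 95% intervals of -0.13 to 0.31 and -0.23 to 0.14, which include 0.

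PGN and IMQ went with a smaller rise of the subunits and with no called fall. In PGN against PBS, 15 of 80 members (18.8%) were higher and 0 lower, beside 2.09% of all genes higher and 1.81% lower. In IMQ against PBS, 14 (17.5%) were higher and 0 lower, beside 3.09% and 2.6% of all genes. Median log2 changes of the members were 0.0971 after PGN and 0.0809 after IMQ, against 0.0164 and 0.0151 over all genes. Leaving out 1 array moved the calls over all genes to between 172 and 231 higher and 107 and 264 lower after PGN (283 and 245 with all arrays), and to between 214 and 390 and 171 and 368 after IMQ (418 and 351). The members' calls then ran from 7 to 13 higher after PGN and from 8 to 14 higher after IMQ. Complex I supplied 8 of the calls after PGN and 9 after IMQ, and complex II none. Both comparisons use the same PBS arrays, as do those of LPS and BG, so the values below are set side by side only. No member was lower at an adjusted p under 0.05 by limma; at an unadjusted p under 0.05 the lower members numbered 0 after PGN and 2 after IMQ, and limma with array weights called 1 lower after PGN (Ndufv1) and 2 after IMQ (Sdhc and Uqcrc1).

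Ndufb9 of the membrane arm had PBS values of 9.93, 9.99, 10.02 and 9.92, PGN values of 10.29, 10.41, 10.32 and 10.28 and IMQ values of 10.33, 10.36, 10.36 and 10.28. Both ligands' arrays lay above all PBS arrays (log2 change of 0.36 ± 0.056 SE, 1.28-fold higher, adjusted p = 0.000367 for PGN; log2 change of 0.37 ± 0.056 SE, 1.29-fold higher, adjusted p = 0.000235 for IMQ). Ndufs6 read 8.77, 8.96, 8.85 and 8.86 after PGN, beside 8.48, 8.47, 8.61 and 8.37 after PBS. The PGN arrays were all higher (log2 change of 0.37 ± 0.059 SE, 1.30-fold higher, adjusted p = 0.000493). Ndufa13, also known as GRIM-19, was higher after PGN (log2 change of 0.22 ± 0.045 SE, 1.16-fold higher, adjusted p = 0.00547), a call lost with only the 8 arrays of both groups, and after IMQ (log2 change of 0.24 ± 0.045 SE, 1.18-fold higher, adjusted p = 0.00207). Uqcrb, the ubiquinone-binding protein of complex III, read 11.16, 11.36, 11.19 and 11.22 after PBS, 11.51, 11.61, 11.45 and 11.49 after PGN and 11.61, 11.62, 11.64 and 11.55 after IMQ. PBS replicate 2 came close to the PGN arrays without reaching them (log2 change of 0.28 ± 0.056 SE, 1.21-fold higher, adjusted p = 0.00446 for PGN; log2 change of 0.37 ± 0.056 SE, 1.29-fold higher, adjusted p = 0.000191 for IMQ).

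In complex IV, Cox6c read 11.75, 11.86, 11.85 and 11.89 after PBS, 12.13, 12.10, 12.15 and 12.11 after PGN and 12.11, 12.10, 12.11 and 12.02 after IMQ. The ligand arrays were closely grouped and above PBS (log2 change of 0.29 ± 0.040 SE, 1.22-fold higher, adjusted p = 0.000134 for PGN; log2 change of 0.25 ± 0.040 SE, 1.19-fold higher, adjusted p = 0.000532 for IMQ). Atp5pb, the b subunit of the peripheral stalk of complex V, read 9.97, 10.10, 9.95 and 10.05 after PBS and 10.33, 10.40, 10.33 and 10.25 after IMQ, higher without overlap (log2 change of 0.31 ± 0.057 SE, 1.24-fold higher, adjusted p = 0.00139). Ndufs7, which fell after BG, was higher after PGN (log2 change of 0.22 ± 0.035 SE, 1.16-fold higher, adjusted p = 0.000493) and after IMQ (log2 change of 0.15 ± 0.035 SE, 1.11-fold higher, adjusted p = 0.00865). The counts rest on few arrays: without PBS replicate 1 or without PGN replicate 2, 7 members were higher after PGN, and without IMQ replicate 3, 8 were higher after IMQ. Without PBS replicate 1, 1 member was lower after IMQ (Uqcrc1). With only the 8 arrays of both groups, 9 were higher after PGN, beside 150 of all genes (283 in the full fit). Quantile normalisation repeated on the deposited values gave 16 higher and 2 lower after IMQ, again Sdhc and Uqcrc1. Over all genes that setting gave 431 higher and 582 lower, against 418 and 351 in the full fit.

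LPS, the ligand of the study's title, was followed by few called changes of the subunits. In LPS against PBS, 1 of 80 members (1.25%) was higher and 3 (3.75%) lower, beside 4.36% and 5.52% of all genes. That background itself rests on single arrays: 589 genes were called higher and 746 lower with all arrays, and leaving out LPS replicate 2 gave 1 and 3, PBS replicate 3 87 and 85, PBS replicate 4 186 and 254, LPS replicate 1 277 and 319, and PBS replicate 2 323 and 526. The estimate was above 0 for 21 members, with a median log2 change of -0.035 against -0.013 over all genes, a shift that was 0.0004 when quantile normalisation was repeated. The call higher was Cox6a2, the isoform of complex IV known from heart and skeletal muscle, which read 7.86, 7.94, 7.64 and 7.80 after PBS and 8.05, 8.32, 7.96 and 8.09 after LPS. The groups did not overlap (log2 change of 0.29 ± 0.076 SE, 1.23-fold higher, adjusted p = 0.0242), but the call was lost without PBS replicate 3, PBS replicate 4 or LPS replicate 2. Atp5md read 11.33, 11.08, 11.36 and 11.28 after LPS, below all its PBS values given above. Ndufb6, Ndufc1 and Atp5md were called lower with log2 changes of -0.26, -0.16 and -0.25 and limma's adjusted p of 0.0455, 0.0495 and 0.0385. None of the 3 calls held without PBS replicate 2, PBS replicate 3, PBS replicate 4, LPS replicate 1 or LPS replicate 2. With only the 8 LPS and PBS arrays in the fit, 0 members were called in either direction, and centring each array on its median gave 1 higher and 5 lower, repeated quantile normalisation 1 and 1. Over all genes these settings gave 258 higher and 250 lower, 391 and 1219, and 423 and 438.

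Knockout and LPS effects, which share no array, were subtracted gene by gene and the remainder was tested. It was above 0 for 29 of 80 members and below 0 for 3, beside 18.8% and 10.5% of all genes (1416 genes below 0, and 894 without knockout replicate 2). Uqcrc1 had one of 0.38 ± 0.068 SE on the log2 scale (adjusted p = 0.000245). Its LPS arrays read 10.02, 10.01, 10.09 and 10.19 beside 10.08, 10.17, 10.22 and 10.31 after PBS, which overlap. Ndufa9 differed by 0.39 ± 0.082 SE on the log2 scale (adjusted p = 0.00113). Cyc1 differed by 0.42 ± 0.090 SE on the log2 scale (adjusted p = 0.00134). For Sdhc the remainder was 0.32 ± 0.069 SE on the log2 scale (adjusted p = 0.0014). Atp5md, Ndufb6 and Ndufc1 were called higher in the knockout and lower after LPS. Their remainders were 0.50 ± 0.10 SE on the log2 scale (adjusted p = 0.00117) for Atp5md, 0.56 ± 0.12 SE on the log2 scale (adjusted p = 0.000956) for Ndufb6 and 0.36 ± 0.076 SE on the log2 scale (adjusted p = 0.00122) for Ndufc1. The count above 0 was 47 with each array centred on its median, with 0 below 0, and 15 with quantile normalisation repeated, with 6 below 0. It was 18 with only the 4 groups concerned and 11 with the B cell covariate, and it was 19 without WT replicate 2, knockout replicate 2, LPS replicate 1 or LPS replicate 2. Calls over all genes moved too, from 2542 above 0 in the full fit to 4029 with centring and 1930 with repeated quantile normalisation. They were 1762 with only the 4 groups, 989 with the covariate, and 1929, 1965, 2231 and 1945 without those 4 arrays in turn. Between LPS and BG directly, 7 of 80 members were higher after LPS and 47 lower, beside 16.7% and 18.2% of all genes. Leaving out 1 array gave 7 to 8 and 43 to 46.

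The subunits of PBS-injected mice also differed from those of uninjected WT mice. In PBS against WT, 23 of 80 members (28.8%) were higher and 11 (13.8%) lower, beside 19.7% of all genes higher and 12.9% lower, with a median log2 change of 0.058 against 0.022. The share of lower calls was near that of all genes, and nothing particular to the subunits is read from the falls. The labels do not give the age of uninjected mice, so injection, age and the day of the experiment cannot be told apart here. PBS arrays also enter each ligand comparison and WT arrays the knockout comparison, so the changes are listed without any comparison between them. Repeated quantile normalisation gave 17 higher and 15 lower, only the 8 arrays concerned gave 15 higher, and leaving out WT replicate 2 gave 14 higher. Over all genes, 2667 were higher and 1748 lower with all arrays, 1869 and 914 without WT replicate 1, and 1746 and 1006 without WT replicate 2. These were 1960 and 1436 with repeated quantile normalisation, and 1378 and 688 with only the 8 arrays concerned.

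Some members rose and others fell. Atp5g1 read 10.48, 10.43, 10.61 and 10.74 in WT and 10.96, 11.13, 11.10 and 11.11 after PBS. Every PBS array was above every WT array (log2 change of 0.51 ± 0.057 SE, 1.42-fold higher, adjusted p = 1.49e-06). Cyc1 read 9.64, 9.74, 9.69 and 9.67 after PBS, beside the WT values given above, again without overlap (log2 change of 0.42 ± 0.064 SE, 1.34-fold higher, adjusted p = 4.37e-05). Ndufb8 of the membrane arm read 8.81, 8.86, 8.88 and 9.08 in WT and 9.18, 9.32, 9.36 and 9.33 after PBS. Its PBS arrays were all higher (log2 change of 0.39 ± 0.068 SE, 1.31-fold higher, adjusted p = 0.000208). Ndufs8 was higher as well (log2 change of 0.39 ± 0.044 SE, 1.31-fold higher, adjusted p = 1.53e-06). Uqcrc1 was also higher, without overlap (log2 change of 0.37 ± 0.048 SE, 1.30-fold higher, adjusted p = 6.32e-06). Ndufb6 had the steepest fall, from the WT values above to 9.79, 9.93, 9.88 and 9.87 after PBS, with no overlap (log2 change of -0.56 ± 0.082 SE, 1.47-fold lower, adjusted p = 3.41e-05). Ndufa6 fell too (log2 change of -0.43 ± 0.061 SE, 1.35-fold lower, adjusted p = 1.98e-05). The X-linked Ndufa1 was lower in every PBS array (log2 change of -0.38 ± 0.078 SE, 1.30-fold lower, adjusted p = 0.000903). Cox4i1 of complex IV fell (log2 change of -0.31 ± 0.061 SE, 1.24-fold lower, adjusted p = 0.000626).

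In complex V, the γ subunit Atp5c1 fell from 10.77, 10.65, 10.80 and 10.81 in WT to 10.33, 10.41, 10.52 and 10.41 after PBS, with no overlap (log2 change of -0.34 ± 0.055 SE, 1.26-fold lower, adjusted p = 9.3e-05). The α subunit Atp5a1 fell too (log2 change of -0.23 ± 0.037 SE, 1.18-fold lower, adjusted p = 8.13e-05), while the β subunit Atp5b was not called (0.053).

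Most tissue-restricted isoforms of complex IV were near the floor, which was 6.32 on the log2 scale. Cox7b2 and Ndufa4l2 did not exceed it in any of the 28 arrays, and Cox8b exceeded it in 3 arrays, so none of them was tested. Cox6b2, Cox7a1 and Cox8c were tested and called in none of the 6 comparisons. Cox4i2, the isoform known from lung, read 7.16, 7.15, 6.87 and 7.03 in WT and 6.80, 6.75, 6.65 and 6.84 after PBS, lower in every PBS array (log2 change of -0.29 ± 0.077 SE, 1.22-fold lower, adjusted p = 0.0061). Cox6a2 was called in 3 comparisons. It read 8.04, 7.95, 7.69 and 7.83 in WT, 8.07, 8.07, 8.14 and 8.23 in the knockout and 8.12, 8.15, 8.30 and 8.20 after BG. The knockout arrays lay just above WT (log2 change of 0.25 ± 0.076 SE, 1.19-fold higher, adjusted p = 0.0136), a call lost without WT replicate 3 (log2 change of 0.19, adjusted p = 0.0657), and the BG arrays lay above the PBS arrays given above (log2 change of 0.38 ± 0.076 SE, 1.30-fold higher, adjusted p = 0.000269). Its general counterpart Cox6a1 was not called in any comparison, and neither were Ndufb3, Ndufb5 and the Rieske protein Uqcrfs1.

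Probe sets of a gene mostly gave the same verdict. Of the 17 members with several probe sets, 1 (Atp5md) had probe sets only partly called in the knockout, 5 after BG, 4 in PBS against WT, 2 after IMQ, 1 after PGN and 0 after LPS, and no gene had probe sets called in opposite directions.

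Other genes of the mitochondrion were read from lists of factors around the complexes. Proteins of the mitochondrial ribosome, which makes the subunits encoded by mitochondrial DNA, had 28 of 77 tested genes higher (36.4%) and 1 lower in the knockout, beside 17.7% of all genes higher. After BG 27 were higher (35.1%) and 8 lower (10.4%), beside 20.2% and 21.4% of all genes. Their counts were 4 and 0 after PGN, 4 and 0 after IMQ, 0 and 3 after LPS, and 26 (33.8%, beside 19.7% of all genes) and 3 in PBS against WT. Mrps18b had a log2 change of 0.35 in the knockout and -0.33 after BG, and Mrpl18 one of 0.16 and 0.61. Assembly factors of the complexes had 14 of 46 higher (30.4%) and 1 lower in the knockout. After BG 11 were higher (23.9%) and 5 lower, a share of higher calls near the 20.2% of all genes. In the knockout the complex IV assembly factors Coa5 and Coa3 rose by 0.48 and 0.38 on the log2 scale, and the complex I factor Ndufaf4 by 0.35. After BG, Cox14 rose by 0.46 and Atpaf1, an assembly factor of ATP synthase, fell by 0.49 on the log2 scale. The other 4 comparisons gave 0 higher and 2 lower (PGN), 0 and 1 (IMQ), 1 and 3 (LPS) and 9 and 2 (PBS against WT, where 19.6% higher is near the 19.7% of all genes).

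Enzymes of the tricarboxylic acid cycle, which feed NADH and succinate to the chain, had 6 of 17 higher in the knockout (35.3%, beside 17.7% of all genes) and 0 lower, among them Idh3a (0.27), Idh2 (0.20) and Ogdh (0.19, log2 changes). After BG, 1 was higher (Suclg1, 0.37) and 4 lower, among them the citrate synthase Cs (-0.31) and Idh3g (-0.24), and these 23.5% lower are near the 21.4% of all genes. Regulators of mitochondrial biogenesis had 7 of 21 higher (33.3%) and 2 lower (9.52%, near the 10.7% of all genes) in the knockout, and 7 higher (33.3%) and 3 lower (14.3%) after BG. The nuclear receptor Esrra, which encodes ERRα, had log2 changes of 0.16 and 0.37 in the 2 comparisons, and the coactivator gene Pprc1 0.24 and 0.30. Hif1a, a factor known to favour glycolysis over respiration, had -0.43 and -0.83. Nrf1 was called after BG (0.25). Of the partners of the complexes in the inner membrane, 5 of 17 were higher (29.4%) and 2 lower (11.8%) in the knockout, and 8 higher (47.1%) and 3 lower (17.6%) after BG. With 17 to 21 genes a list, 1 gene moves these shares by several percent, and nothing particular to a list is read from them. Gpd2, which passes electrons from glycerol 3-phosphate to ubiquinone, had 0.58 in the knockout, and Atpif1, the inhibitor of ATP synthase, 0.19 in the knockout and 0.31 after BG. Among subunits encoded by mitochondrial DNA, 2 were measured above the floor (ND3 and COX2), and ND3 was lower in the knockout (-0.37). After LPS both were called lower, with a median log2 change of -0.23, and 1 was lower in PBS against WT. After PGN, IMQ and BG 0 were called. These calls were not rerun without single arrays.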

How the data were processed

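RNA of 28 samples was hybridised to Affymetrix whole-transcript arrays, 4 per group. Per the submitters' processing notes, the authors made the deposited values with RMA in Expression Console. They are linear intensities. The software's version is not given in the sources used here. Log2 of the deposited intensity was taken here with no further normalisation. Of 35556 probe sets, 21789 had 1 gene symbol, 1621 had several and 12146 had none. The latter kinds were not used for genes. A gene was tested where its signal exceeded a floor of 6.32 (the 95th percentile of 1210 odorant and vomeronasal receptor probe sets) in at least 4 arrays, which left 13512 genes.

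limma 3.58.1 in R 4.3.3 fitted 1 mean per group over all 28 arrays (eBayes with an intensity trend), and p-values were adjusted over all genes tested by Benjamini-Hochberg. An adjusted p under 0.05 was called, and values as "± SE" come from this fit. The number of arrays limits the precision. Members named with values are, per comparison, up to 8 called members with the largest change among those without overlap and the 2 called members of each complex with the smallest p, members called in 3 or more comparisons, up to 8 with the smallest p for each difference of effects, and a fixed set of core subunits and isoforms. For the first of these kinds, lack of overlap was a condition of being named and is no further support. Of the other gene lists, up to 4 called genes were named per comparison by smallest p. Cox5b, Uqcrc2, the members named for a promoter and those listed as not called fall outside this rule and were named after their values were seen. The members, gene lists and named members were chosen with earlier results of these data known, so they are not independent of them. Alternatives were another scaling, filter, probe set rule, variance model or set of arrays, the B cell covariate, a replicate block and leaving out each array. limma was tested on simulated data. The labels call the samples biologically independent experiments.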

Additional observations from a re-analysis of the deposited data

Results flagged for a closer look

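Single arrays stood apart for 27 of 420 combinations of a named member and a group (60 members, 7 groups of 4), where the gap to the nearest array, as a share of the group's range, exceeded Dixon's critical value for 4 samples. Chance flags about 1 in 20 groups. In WT, these were Ndufa4 (8.51) and Ndufs6 (8.47) in replicate 2 and Cox7a1 (6.32) in replicate 3, all low. In the knockout, Atp5md (11.70) and Ndufb9 (10.19) were high and Atp5j (10.80) low in replicate 2, and Atp5a1 (10.85) was low in replicate 3. After LPS, Atp5g2 (11.85) and Atp5c1 (10.62) were high in replicate 3, Atp5mpl (8.54) was low in replicate 4 and Atp5l (8.47) low in replicate 2. After PGN, Ndufa2 (9.61), Ndufb8 (9.48) and Cox6a1 (10.26) were high in replicate 2 and Cox6b1 (11.02) was low in replicate 1. After IMQ, replicate 4 was high for Cox7a2l (8.62) and low for Cox6c (12.02), Ndufv2 (10.95), Ndufb8 (9.12) and Cox7b (12.00), and replicate 3 was high for Atp5l (8.89). After BG, replicate 1 was low for Ndufa4 (8.88) and Ndufv2 (10.50), and replicate 2 was high for Ndufa13 (9.38), Sdhd (9.80), Atp5g1 (11.45) and Ndufs3 (9.80). All are log2 signals.

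The knockout effect differed from the LPS effect, by the test of the difference itself over the full fit of limma, for Uqcrc1 (0.38, adjusted p = 0.000245), Ndufb6 (0.56, 0.000956), Ndufa9 (0.39, 0.00113), Atp5md (0.50, 0.00117), Ndufc1 (0.36, 0.00122), Cyc1 (0.42, 0.00134), Sdhc (0.32, 0.0014) and Ndufv1 (0.34, 0.00305), on the log2 scale. It differed from the BG effect for Atp5md (1.20, adjusted p = 7.55e-09), Atp5d (0.40, 2.9e-07), Ndufa6 (-0.71, 1.24e-06), Ndufa1 (-0.77, 9.82e-06), Atp5l (-0.51, 2.65e-05), Uqcrh (-0.47, 0.000105), Ndufs7 (0.27, 0.000178) and Atp5mpl (-0.50, 0.000226).

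Probe sets that carry the symbol of a subunit beside another symbol were not used for any comparison, yet they had signals above the floor. Those of Cox7c, shared with Gm12338, had mean log2 signals of 11.89, 12.00 and 12.00, those of Ndufb4, shared with Ndufb4b, 10.99 and 11.30, and that of Ndufs5, shared with its pseudogene, 7.36.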

How the results depend on the processing

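Of 135 calls of named members, 69 held in every alternative run, 65 were lost in at least 1 and 1 turned (Ndufa7 in the knockout, -0.022 with the B cell covariate, adjusted p = 0.929). Counts of called members moved by over 1.5 times as follows, and the cause was not tested. With the B cell covariate, the knockout had 3 higher and 2 lower. With only the arrays of both groups, it had 17 and 3, LPS had 0 and 0, PGN had 9 higher, and PBS against WT had 15 higher. Lower calls after LPS were 5 with arrays centred, 1 with quantile normalisation repeated, 1 without an intensity trend and 5 with array weights. Lower calls were 1 after PGN with array weights, and 2 after IMQ both with repeated quantile normalisation and with array weights. Calls over all genes moved too. After LPS, 1219 of all genes were lower with centring and 1201 with array weights, against 746 in the full fit. With array weights, 736 were lower after PGN (245 in the full fit) and 755 after IMQ (351).

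Alternatives for the differences of effects were chosen after seeing the data. Differences above 0 between the knockout and LPS effects numbered 47 with arrays centred, 15 with repeated quantile normalisation, 11 with the B cell covariate and 18 with only the groups concerned. Those below 0 numbered 0 with centring and 6 with repeated quantile normalisation. Over all genes, 4029 were above 0 and 684 below with centring, and 1930 and 1264 with repeated quantile normalisation. With the covariate these were 989 and 370, and with only the groups concerned 1762 and 892, against 2542 and 1416 in the full fit. Of the 16 named differences, that of Ndufv1 between the knockout and LPS effects lost its call with the B cell covariate (0.34, adjusted p = 0.0534).

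Leaving out 1 array gave 21 to 40 higher and 4 to 5 lower in the knockout, 0 to 1 and 0 to 4 after LPS, 7 to 13 higher after PGN, 8 to 14 and 0 to 1 after IMQ, 39 to 44 higher after BG, 14 to 27 and 11 to 12 in PBS against WT, and 19 to 33 and 2 to 4 for the difference of the knockout and LPS effects. A replicate block gave 36 higher and 5 lower in the knockout and 44 and 8 after BG. Deviations of same-numbered arrays correlated with r from -0.52 to 0.483, above 0.1 in 26 of 84 pairs. WT and LPS exceeded 0.1 for all 4 numbers (0.172, 0.483, 0.384 and 0.174), and these groups meet only in the difference of the knockout and LPS effects, where the block gave 27 above 0 and 3 below 0. No other pair of groups did so, and the numbers were not taken as pairing the samples. With 4 arrays a group, small changes near the threshold could not be settled, and members near the floor are compressed.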
